A study of Homo sapiens with 12 samples.

Results

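The 10 genes described here are CYP4F3, PVRL4, EPPK1, ATP8B4, PDE4C, ABCA12, MUC19, FRMPD2, INPP5D and SLC16A6. They were taken by gene symbol from the 18987 genes present in both tables of a study of IMR5, an established human neuroblastoma cell line with amplified MYCN. They were selected on the measured values analysed here: their values were low in control cells and rose steeply when the nuclear export receptor XPO1 was inhibited with a drug or depleted with an siRNA, so the rises that named them are a description here and were not tested. Libraries of total RNA were sequenced from 4 groups of 3: cells grown with 100 nM selinexor for 24 h, cells grown with the solvent DMSO for a time not stated in the labels, cells 72 h after nucleofection with a single siRNA against XPO1, and cells 72 h after nucleofection with control siRNA. Every group was the same cell line in the same serum-containing medium, and the labels do not say whether the replicates were separate cultures, so p-values measure the spread between these libraries.

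XPO1 (exportin 1) carries proteins with a leucine-rich export signal out of the nucleus, among them p53 and other transcriptional regulators, and it also exports some RNAs. Selinexor binds the cargo groove of XPO1 and blocks export while the XPO1 transcript can still be made. The 10 genes share no pathway in the textbook sense. Several are usually described in epithelium or blood cells: nectin-4 (PVRL4), epiplakin (EPPK1), ABCA12 and the mucin MUC19 in epithelial tissues, and SHIP1 (INPP5D) and the leukotriene hydroxylase CYP4F3 in blood cells.

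The values are normalized read counts, which the authors obtained by dividing gene counts by a size factor per library, separately for the selinexor table and the knockdown table. Estimated depth was 26.9 to 33.8 M reads in selinexor libraries, 39.5 to 40.9 M in DMSO libraries, 33.5 to 55.8 M in XPO1 siRNA libraries and 40.6 to 54.0 M in control siRNA libraries. Selinexor replicate 1 stood apart from the other selinexor libraries, with log2 correlations of 0.974 and 0.977 to them, against 0.991 between those other libraries. XPO1 itself averaged 4344 ± 74.0 in XPO1 siRNA libraries and 18809 ± 210 in control siRNA libraries (SD, n = 3 each), a log2 fold change of -2.11 (limma, adjusted p = 2.91e-14). Its level was 19741 ± 3697 in selinexor libraries and 18380 ± 507 in DMSO libraries (SD, n = 3 each; limma, adjusted p = 0.623). Without selinexor replicate 1 its log2 fold change was 0.25 and past the threshold (limma, adjusted p = 0.00191). MYCN and HAND2, from a list of 8 genes that mark neuroblastoma cells, were high in every group. TH, from the same list, averaged only 5.50 with XPO1 siRNA and 5.41 with control siRNA, and it was not analysed with selinexor. MYCN averaged 32320 with selinexor, 30287 with DMSO, 34438 with XPO1 siRNA and 28044 with control siRNA. HAND2 averaged 17580 with selinexor, 12098 with DMSO, 18925 with XPO1 siRNA and 15755 with control siRNA.

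The 10 genes differed in how low they were in control cells. In DMSO libraries 7 of the 10 had a mean under 10, while INPP5D and MUC19 averaged 16.1 and 16.4 and SLC16A6 averaged 156. In control siRNA libraries 4 of the 10 had a mean under 10: CYP4F3, PVRL4, ABCA12 and FRMPD2. The deposited count was divided by the length of each gene's longest GENCODE transcript to compare genes with one another. On that per-kilobase scale CYP4F3 stood at the 35.9th percentile of measured genes with selinexor and at the 0.206th percentile with DMSO. PVRL4 stood at the 50.1st percentile with selinexor and at the 4.11th with DMSO. SLC16A6 stood at the 64.9th percentile with selinexor and at the 29.8th with DMSO, so it was a gene of modest expression that became higher and not a silent one. After treatment the other 9 genes lay between the 18.5th and 50.1st percentiles with selinexor and between the 3.61st and 39.4th with XPO1 siRNA, in the lower and middle part of the range in both.

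All 10 genes had every selinexor library above every DMSO library and every XPO1 siRNA library above every control siRNA library. This was so for 28.8% of the 18128 genes tested with selinexor and for 29.2% of the 17616 tested with knockdown, and nothing is read from the 10 because the rises chose them. All 10 passed the filter of a mean of 10 or more over the 6 libraries of each table, and those with low controls passed it through their treated libraries. The median log2 fold change of the 10 was 5.95 with selinexor and 3.58 with XPO1 siRNA, against -0.0076 and 0.0024 over all genes tested. A control mean under 10 together with a treated mean of 100 or more was found in 19 genes with selinexor, 0.727% of the 2615 with such controls, and 7 of the 19 were among these 10. With knockdown it was found in 3 genes, 0.13% of 2313, and these were CYP4F3, PVRL4 and FRMPD2. The lists that named genes held the 8 steepest rises among genes with a treated mean of 100 or more and no overlap between groups. Genes with only a clone or locus number as a name were left out. Over all genes tested, MUC19 ranked 10 by log2 fold change with selinexor and SLC16A6 ranked 19 with knockdown. At the edge of the selinexor list, MUC19 was the last included at a log2 fold change of 5.77 and FRMPD2 the first left out at 5.51. With knockdown SLC16A6 was the last included at 3.03 and ZNF750 the first left out at 2.92. Those lists of 8 also hold genes that are not among the 10. GDF15, which encodes a stress-induced cytokine, was number 2 in the selinexor list, where it averaged 325, against 2.63 with DMSO. CDKN1A and ACTA2 were numbers 5 and 6 in the knockdown list, and their control siRNA means were 688 and 43.3.

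**Figure D1:**
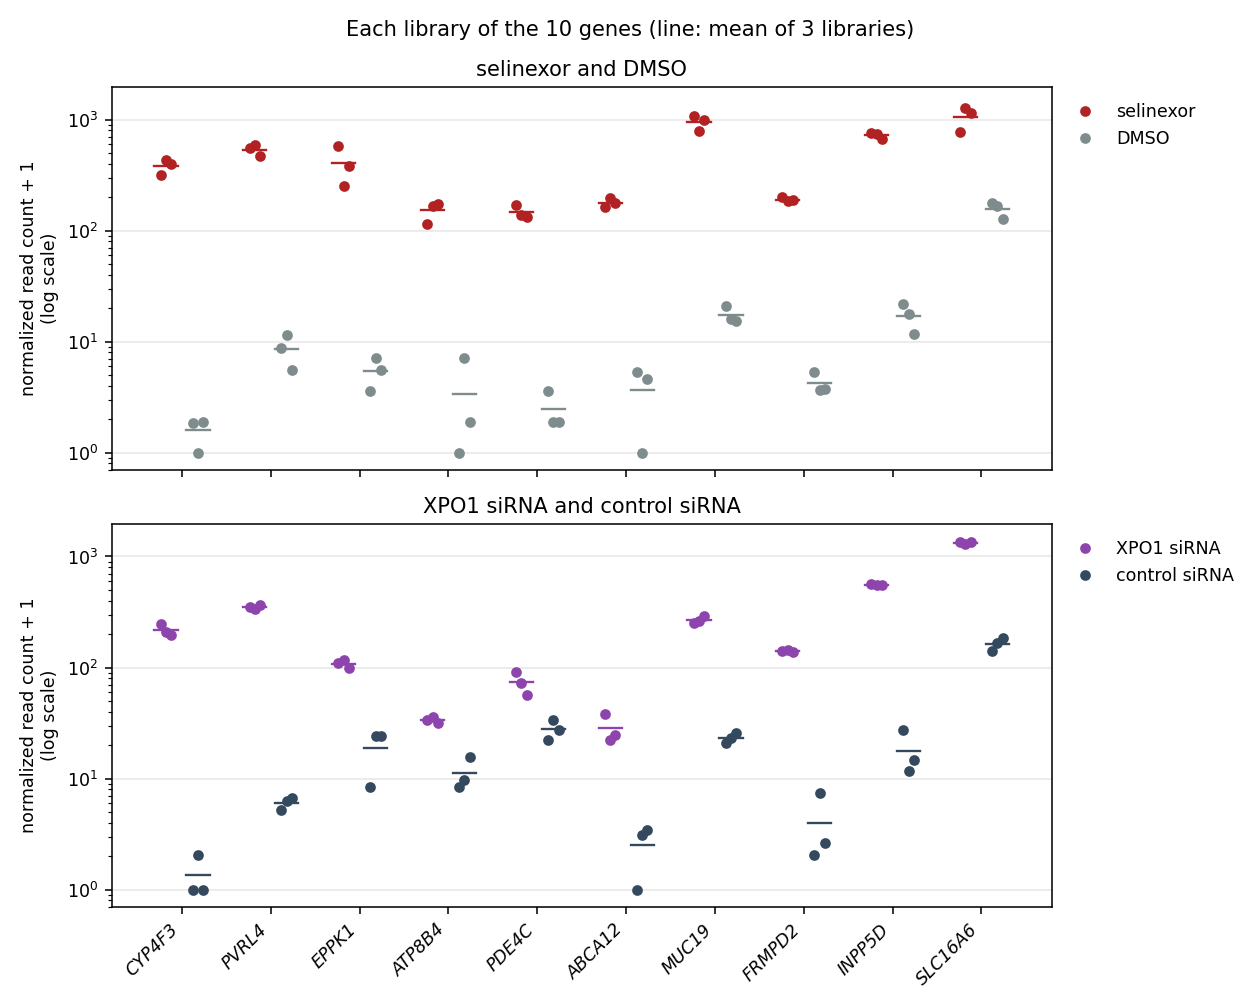
Normalized read count plus 1 (log axis) of the 10 genes in each library, with selinexor (red) and DMSO (grey) above and XPO1 siRNA (purple) and control siRNA (dark blue) below; points are libraries and lines are means of 3. Every treated library lies above every control library of the same table, and the SLC16A6 controls sit far above those of the other genes.

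Promoter sequence was available for 8 of the 10 genes, in 13 windows of 300 bases that run from 250 bases before an annotated transcription start to 50 after it (RefSeq, GRCh38.p14). They were searched on both strands for the half-site of the p53 consensus because p53 is an XPO1 cargo. The half-site was found in 4 of the 13 windows, belonging to ABCA12, MUC19 and PDE4C, and in 6.63% of all 35116 promoter windows. Shown here are the window richest in half-sites of each of PDE4C, MUC19 and ABCA12, and the window of CYP4F3, which has none and belongs to the gene with the steepest rise. Capitals mark half-sites, and each sequence is written 5′ to 3′ on the strand of its gene.
PDE4C, chr19:18224444-18224743, minus strand: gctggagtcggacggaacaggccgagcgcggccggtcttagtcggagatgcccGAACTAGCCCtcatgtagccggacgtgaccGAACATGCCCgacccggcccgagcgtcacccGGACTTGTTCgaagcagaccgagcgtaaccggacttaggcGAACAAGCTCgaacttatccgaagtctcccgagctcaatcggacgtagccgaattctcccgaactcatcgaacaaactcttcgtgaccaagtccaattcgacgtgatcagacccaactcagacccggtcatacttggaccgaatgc
MUC19, chr12:40393144-40393443, plus strand: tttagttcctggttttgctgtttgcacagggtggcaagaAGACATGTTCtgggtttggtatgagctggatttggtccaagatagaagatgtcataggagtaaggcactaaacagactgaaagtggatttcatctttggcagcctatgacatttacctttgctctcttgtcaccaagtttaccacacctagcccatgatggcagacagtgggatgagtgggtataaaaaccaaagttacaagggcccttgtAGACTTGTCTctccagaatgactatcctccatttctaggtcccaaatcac
ABCA12, chr2:215138577-215138876, minus strand: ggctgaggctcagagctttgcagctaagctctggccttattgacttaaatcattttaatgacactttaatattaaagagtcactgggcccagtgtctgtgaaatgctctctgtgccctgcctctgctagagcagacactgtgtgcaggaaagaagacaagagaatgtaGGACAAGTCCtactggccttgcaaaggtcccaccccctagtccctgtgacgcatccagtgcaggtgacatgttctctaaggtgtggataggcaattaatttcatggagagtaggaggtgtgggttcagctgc
CYP4F3, chr19:15641062-15641361, plus strand: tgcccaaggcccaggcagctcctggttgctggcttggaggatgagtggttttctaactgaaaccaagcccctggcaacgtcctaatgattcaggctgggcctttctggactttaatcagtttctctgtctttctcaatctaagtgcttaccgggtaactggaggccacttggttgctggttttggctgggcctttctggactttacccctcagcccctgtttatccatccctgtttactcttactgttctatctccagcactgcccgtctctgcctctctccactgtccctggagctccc

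The PDE4C window holds 4 half-sites, which begin 197, 167, 136 and 96 bases before the start, and it is 1 of 4 windows annotated for this gene. A second PDE4C window, at chr19:18248151-18248450 on the minus strand, holds 1 half-site that begins 39 bases after its start. In MUC19 one half-site begins at the annotated start itself and another 211 bases before it. The ABCA12 half-site begins 82 bases before the start. A pair of half-sites with a spacer of up to 13 bases was in none of the 13 windows and in 0.0285% of all windows. Of the other motifs searched, the AP-1 site TGANTCA was in 2 of the 13 windows (FRMPD2 and CYP4F3) and in 7.71% of all windows. The SP1 site GGGCGG was in 3 of the 13 windows and 45% of all windows, CCAAT in 3 and 34.6%, and TATAAA in 3 and 11.5%. In MUC19 a TATAAA begins 30 bases before the start, the usual place of a TATA box. A match describes the letters of a window, and no binding was measured here.

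Among the lipid-handling genes, CYP4F3 encodes a cytochrome P450 that inactivates leukotrienes by omega-hydroxylation, and in the authors' hg19 coordinates it lies on chromosome 19 from 15751707 to 15773636, plus strand. CYP4F3 had 315, 427 and 395 normalized reads in selinexor libraries, against 0.860, 0 and 0.903 in DMSO libraries. It had 244, 208 and 194 in XPO1 siRNA libraries, against 0, 1.06 and 0 in control siRNA libraries. The controls were therefore at or below about 1 read per library and the treated libraries at 194 or more. These values stand for about 1028 reads with selinexor and 2 with DMSO, a ratio of 649 with an exact 95% interval of 179 to 5367. They stand for 724 reads with XPO1 siRNA and 1 with control siRNA, a ratio of 678 with an interval of 121 to 26832. The intervals cover counting error only. CYP4F3 ranked first in both comparisons by log2 fold change, at 7.95 ± 0.32 with selinexor and 7.40 ± 0.35 with XPO1 siRNA (SE), and it was named by both, so neither was tested.

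ABCA12 moves glucosylceramides into the lamellar granules of skin keratinocytes, where its loss causes harlequin ichthyosis (hg19 chromosome 2, 215796266 to 216003152, minus strand). Its normalized read counts were 163, 194 and 175 in selinexor libraries, against 4.30, 0 and 3.61 in DMSO libraries. With knockdown they were 37.2, 21.1 and 23.8 in XPO1 siRNA libraries, against 0, 2.12 and 2.42 in control siRNA libraries. The groups were apart in both tables, and the selinexor level was 6.48 times the XPO1 siRNA level, the widest gap of the 10 genes. ABCA12 was named by the selinexor comparison only. In the knockdown comparison, which did not name it, its log2 fold change was 3.65 with an SE of 0.54, a description with no test because it passed the filter on low values through its treated libraries alone. The estimated reads behind that value were 91 with XPO1 siRNA and 5 with control siRNA, a ratio of 17.1 with an exact interval of 7.05 to 53.8.

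ATP8B4 belongs to the P4-ATPases, membrane pumps that flip phospholipids from one leaflet of the bilayer to the other (hg19 chromosome 15, 50150435 to 50475015, minus strand). ATP8B4 had 114, 166 and 172 normalized reads in selinexor libraries, against 6.18 and 0.903 in DMSO replicates 2 and 3 and essentially none in DMSO replicate 1. It had 32.8, 34.9 and 31.0 in XPO1 siRNA libraries, against 7.37, 8.61 and 14.5 in control siRNA libraries. The knockdown libraries were close to one another and well short of the selinexor libraries, while the control siRNA libraries were above the DMSO libraries. Its rise with XPO1 siRNA, which did not name it, had a log2 fold change of 1.65 and an SE of 0.31 (limma, adjusted p = 0.00046).

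Among the signalling enzymes, INPP5D encodes SHIP1, a lipid phosphatase that opposes phosphoinositide 3-kinase signalling, mainly in blood cells (hg19 chromosome 2, 233924677 to 234116550, plus strand). INPP5D had 762, 741 and 670 normalized reads in selinexor libraries, against 20.6, 16.8 and 10.8 in DMSO libraries. It had 568, 549 and 556 in XPO1 siRNA libraries, against 26.3, 10.6 and 13.7 in control siRNA libraries. Every treated library was at 549 or above and every control at 26.3 or below, and the 3 knockdown libraries agreed within a coefficient of variation of 1.76%. INPP5D was named by the knockdown comparison. In the selinexor comparison it rose with a log2 fold change of 5.45 and an SE of 0.22 (limma, adjusted p = 9.06e-07), a ratio of 45.1 between the means of 724 and 16.1.

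PDE4C is one of the phosphodiesterases that break down cyclic AMP (hg19 chromosome 19, 18318771 to 18366230, minus strand). PDE4C had 168, 138 and 131 normalized reads in selinexor libraries, against 2.58, 0.882 and 0.903 in DMSO libraries. It had 90.3, 71.3 and 56.0 in XPO1 siRNA libraries, against 21.1, 32.9 and 26.6 in control siRNA libraries. The groups did not overlap in either table, but the control siRNA libraries were far above the DMSO libraries. In the knockdown comparison, which did not name it, PDE4C rose with a log2 fold change of 1.40 and an SE of 0.23 (limma, adjusted p = 0.000165), the smallest of the 10.

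Of the genes for cell contacts and surfaces, PVRL4 encodes nectin-4, an immunoglobulin-like adhesion molecule of epithelial junctions and the target of an antibody-drug conjugate used in bladder cancer (hg19 chromosome 1, 161040785 to 161059390, minus strand). PVRL4 had 552, 584 and 466 normalized reads in selinexor libraries, against 7.74, 10.6 and 4.51 in DMSO libraries. It had 350, 333 and 364 in XPO1 siRNA libraries, against 4.21, 5.31 and 5.64 in control siRNA libraries. Every control library was at 10.6 or below and every treated library at 333 or above. The ratio of means was 70.2 with selinexor and 69.0 with XPO1 siRNA, and both comparisons named the gene.

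FRMPD2 encodes a scaffold protein with a FERM domain and PDZ domains, which bind membrane and junction proteins (hg19 chromosome 10, 49364601 to 49482942, minus strand). FRMPD2 had 198, 182 and 186 normalized reads in selinexor libraries, against 4.30, 2.65 and 2.71 in DMSO libraries. It had 141, 144 and 138 in XPO1 siRNA libraries, against 1.05, 6.37 and 1.61 in control siRNA libraries. Treated libraries agreed within coefficients of variation of 4.45% and 2.01%. In the selinexor comparison, which did not name it, the log2 fold change of FRMPD2 was 5.51 with an SE of 0.24, given with no test because its treated libraries alone carried it past the filter on low values.

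EPPK1 encodes epiplakin, which binds keratin filaments in epithelial cells, and MUC19 encodes a gel-forming mucin. Both proteins carry long internal repeats, so their read counts depend on how repeated reads were placed, which is not given in the sources used here. EPPK1 (hg19 chromosome 8, 144939497 to 144952633, minus strand) had 577, 252 and 379 normalized reads in selinexor libraries, against 2.58, 6.18 and 4.51 in DMSO libraries. It had 108, 116 and 98.9 in XPO1 siRNA libraries, against 7.37, 23.4 and 23.4 in control siRNA libraries. Selinexor replicate 1 was the highest library of EPPK1, 1.83 times the mean of the other selinexor libraries. The adjacent plectin gene PLEC, another plakin on the same strand, was also highest in that library, at 4241, 2169 and 2341 in selinexor libraries, against 1956, 1825 and 1852 in DMSO libraries. The log2 fold change of PLEC was 0.57 (adjusted p = 0.0642), and it was past the threshold at 0.26 without selinexor replicate 1 (adjusted p = 0.00155) and at 0.75 without selinexor replicate 2 (adjusted p = 0.0256, limma). In the knockdown comparison, which did not name it, EPPK1 rose with a log2 fold change of 2.67 and an SE of 0.34 (limma, adjusted p = 1.63e-05).

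MUC19 (hg19 chromosome 12, 40787197 to 40964633, plus strand) had 1067, 790 and 995 normalized reads in selinexor libraries, against 19.8, 15.0 and 14.4 in DMSO libraries. It had 251, 261 and 288 in XPO1 siRNA libraries, against 20.0, 22.3 and 25.0 in control siRNA libraries. The controls differed by 1.37 times between the tables, while the selinexor level was 3.56 times the XPO1 siRNA level. Both comparisons named MUC19, with ratios of means of 57.9 with selinexor and 11.9 with XPO1 siRNA.

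SLC16A6 encodes a member of the monocarboxylate transporter family that, in zebrafish liver, exports ketone bodies (hg19 chromosome 17, 66263167 to 66287409, minus strand). SLC16A6 had 769, 1269 and 1136 normalized reads in selinexor libraries, against 177, 164 and 126 in DMSO libraries. It had 1336, 1286 and 1359 in XPO1 siRNA libraries, against 139, 166 and 182 in control siRNA libraries. It started from the highest control level of the 10 genes and had the smallest rise with selinexor. In the selinexor comparison, which did not name it, SLC16A6 rose with a log2 fold change of 2.74 and an SE of 0.20 (limma, adjusted p = 1.94e-05). It was the only one of the 10 whose log2 fold change was larger with XPO1 siRNA, at 3.03 ± 0.09 (SE), and that difference was not tested. The knockdown comparison alone named SLC16A6, so a larger value there follows in part from how it was chosen.

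The tests above used an adjusted p of 0.05 as the threshold, past which 22.9% of all genes tested were higher with selinexor and 25.9% with knockdown. A log2 rise of at least 1 was called in 9.6% of genes with selinexor and in 3.3% with knockdown. The 10 genes were proposed with both comparisons known. The tests of INPP5D and SLC16A6 with selinexor are therefore not independent evidence. Nor are those of EPPK1, ATP8B4 and PDE4C with XPO1 siRNA, and nothing is read from how many passed.

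**Figure D2:**
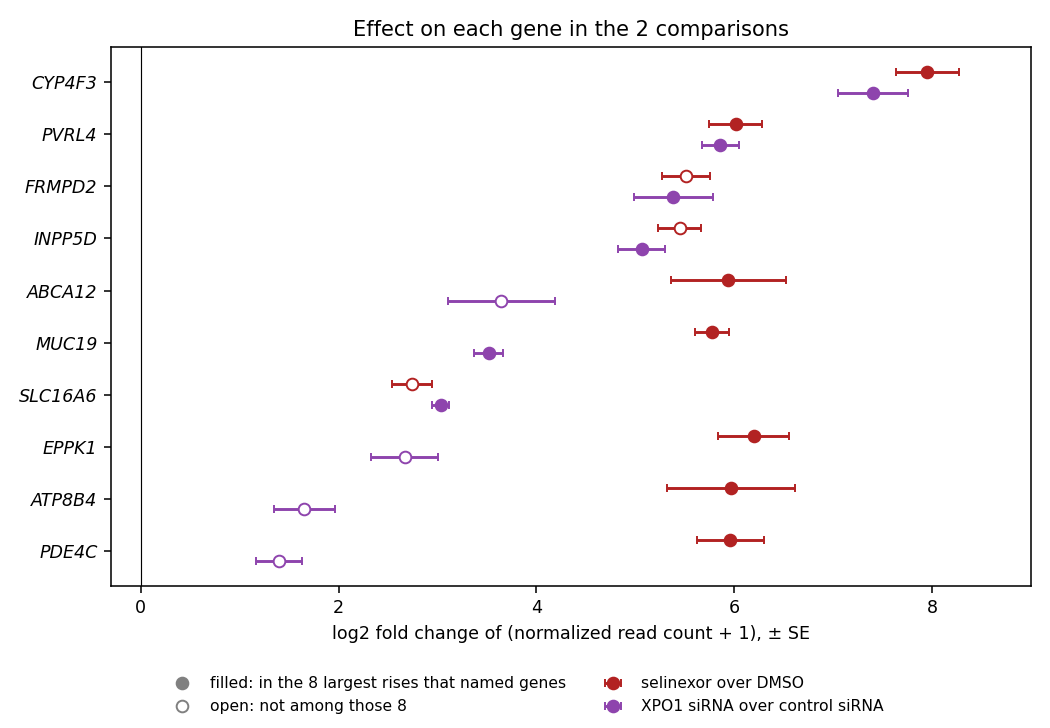
Log2 fold change of the normalized read count plus 1, with SE, for selinexor over DMSO (red) and XPO1 siRNA over control siRNA (purple). Filled points are values among the 8 listed rises that named genes, and open points are values in a comparison that did not. CYP4F3, PVRL4, FRMPD2 and INPP5D have nearly the same value in both comparisons, while EPPK1, ATP8B4 and PDE4C lie near 6 with selinexor and between 1.40 and 2.67 with XPO1 siRNA.

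The 10 genes differed among themselves in how the drug and the siRNA compared. For CYP4F3, PVRL4, FRMPD2 and INPP5D the log2 fold changes of the selinexor and knockdown comparisons lay within 0.55 of each other. EPPK1, ATP8B4, PDE4C, ABCA12 and MUC19 had lower values with XPO1 siRNA, by 2.26 to 4.56 on the log2 scale. EPPK1, ATP8B4, PDE4C and ABCA12 were named by the selinexor comparison only, so a larger value there follows in part from how they were chosen. The selinexor value of ATP8B4, 5.97, was 5.34 without DMSO replicate 1 and 6.76 without DMSO replicate 2, and that of ABCA12, 5.94, was 5.17 without DMSO replicate 2. The dose, the time, the delivery and the normalization differ between the tables, so the values are set side by side with no test of their difference. The control level moved with the result in part of this. Levels with control siRNA were 18.5 times those with DMSO for PDE4C, 4.31 times for ATP8B4 and 4.08 times for EPPK1, against a median ratio of 1.12 over 16709 genes and a 5th to 95th percentile range of 0.663 to 1.94. For the other 7 genes the ratio lay between 0.574 and 1.37. The treated levels differed too: selinexor over XPO1 siRNA was 6.48 for ABCA12, 4.59 for ATP8B4, 3.74 for EPPK1, 3.56 for MUC19 and 2.01 for PDE4C, and it lay between 0.797 and 1.76 for the other 5, against a median of 0.868 over 17492 genes. The part of the control level in these differences was not tested.

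Replicate 1 of selinexor departed from the other selinexor libraries in both directions. It was lower for SLC16A6 (0.640 times the mean of replicates 2 and 3), ATP8B4 (0.674) and CYP4F3 (0.766) and higher for EPPK1, and it lay within 0.884 to 1.25 times for the other 6. Without it the ratio of the selinexor mean to the DMSO mean was 700 for CYP4F3, 71.3 for EPPK1 and 7.72 for SLC16A6, against 645, 91.1 and 6.79 with it. In proportion, the ratio of EPPK1 moved the most of the 10.

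Relatives of the 10 genes in the same gene families moved in both directions. Of 111 relatives, 73 were tested with selinexor, of which 27 were higher and 12 lower, and 70 with knockdown, of which 31 were higher and 15 lower. Their median log2 fold changes were 0.16 with selinexor and 0.14 with XPO1 siRNA. The calls of CYP4F2 and PDE11A with selinexor and of MUC1 and ABCA9 in both comparisons rest on control means under 10. So does that of SLC16A13 with XPO1 siRNA, where its control siRNA mean was 8.32. These genes passed the filter on low values through their treated libraries alone. Their calls are therefore descriptions, though the counts and figures include them. The share higher was 37.0% with selinexor and 44.3% with knockdown, against 22.9% and 25.9% of all genes, and the share lower over all genes was 26.3% with selinexor and 28.6% with knockdown. With libraries rescaled to equal totals the 15 lower with knockdown became 4, and over all genes the higher and lower calls with knockdown were 6057 and 3647, against 4561 and 5042 as deposited.

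CYP4F2, a close relative of CYP4F3 that also hydroxylates leukotrienes and vitamin E, had the largest rise among them. CYP4F2 had 40.5, 27.1 and 26.6 normalized reads in selinexor libraries, against 0, 0 and 0 in DMSO libraries. It had 20.1, 18.8 and 16.8 in XPO1 siRNA libraries, against 0, 0 and 0 in control siRNA libraries. It was listed at 0 in every control library and above 0 in every treated one. With selinexor it was at least 35.4-fold higher, counted from 84 estimated reads against a floor of 3 over the DMSO group. That value is a description, because CYP4F2 passed the filter on low values through its treated libraries alone. With XPO1 siRNA it was at least 19.7-fold higher, from 63 estimated reads against the same floor of 3 over the control siRNA group, and its mean was too low for the test. CYP4F2 lies 215196 bases from CYP4F3 on the opposite strand, and its level was 6.35% to 12.9% of that of CYP4F3 in selinexor libraries and 8.24% to 9.01% in XPO1 siRNA libraries. The sequences are closely similar, so reads of one may have been counted for the other, and the CYP4F2 values are uncertain for that reason. CYP4V2, an eye-expressed fatty acid hydroxylase, was the other tested member of its family, at a log2 fold change of 0.27 with selinexor (adjusted p = 0.0573, and 0.00609 without selinexor replicate 1) and 0.48 with XPO1 siRNA (adjusted p = 0.000121, limma).

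Around the epithelial genes, the relatives moved in both directions. PPL, which encodes the cornified-envelope plakin periplakin, was the plakin relative of EPPK1 with the largest rise. PPL had 392, 298 and 270 normalized reads in selinexor libraries, against 60.2, 41.5 and 50.5 in DMSO libraries. It had 198, 207 and 196 in XPO1 siRNA libraries, against 40.0, 27.6 and 33.8 in control siRNA libraries. Its log2 fold changes were 2.63 and 2.55 (limma, adjusted p = 1.80e-05 and 1.68e-08). Of the 5 plakins tested, 3 were higher with selinexor and 4 with knockdown, and none was lower. Of the 6 nectins and nectin-like proteins tested, 3 were higher and 2 lower with selinexor, and 2 were higher and 2 lower with knockdown. The synaptic adhesion gene CADM2 was higher in both, at 1.98 and 1.44, while PVRL3, which encodes nectin-3, was lower in both, at -0.72 and -0.38. The mucin MUC20 averaged 63.9 with selinexor and 29.1 with DMSO, and MUC1 averaged 24.5 with selinexor and 5.58 with DMSO. Both mucins were higher with selinexor, at log2 fold changes of 1.11 and 1.92, and with XPO1 siRNA, at 1.50 and 1.23. The call of MUC1 with XPO1 siRNA (limma, adjusted p = 0.0179) was lost without XPO1 siRNA replicate 1, XPO1 siRNA replicate 2 or control siRNA replicate 3, at an adjusted p of up to 0.0800. Among FERM and PDZ proteins, the tyrosine phosphatase PTPN3 was higher at 1.16 and 0.82, and FRMPD1 at 0.63 and 0.33, while the tyrosine phosphatase PTPN13 was lower at -0.43 and -0.14.

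Among the transporters and signalling enzymes, ABCA6 and ABCA9, neighbours in the cluster of lipid transporters on chromosome 17, were higher in both. The log2 fold changes of ABCA6 were 2.04 with selinexor and 1.96 with XPO1 siRNA, and those of ABCA9 were 2.20 and 2.72, the second of which was 1.90 without control siRNA replicate 2. Of the 7 ABCA relatives tested, 5 were higher in each comparison. The flippases, counted with their subunit TMEM30A, stood at the other end. Of 13 tested with selinexor 1 was higher and 1 lower, with ATP8A2 at a log2 fold change of 0.80. With knockdown 6 of 12 were higher, TMEM30A among them, and 3 were lower. The largest of those named was again ATP8A2 at 0.66. Of the cyclic AMP phosphodiesterases, PDE4D was higher at 1.22 with selinexor and 0.88 with XPO1 siRNA. PDE11A had log2 fold changes of 1.97 with selinexor, where its DMSO mean was 6.76, and 0.36 with XPO1 siRNA (limma, adjusted p = 0.390 for the second). The difference was not tested. Among inositol phosphatases SYNJ2 was lower at -0.73 and -0.68, opposite to INPP5D, while of 10 tested 3 were higher and 4 lower with selinexor, and 1 was higher and 5 lower with knockdown. SLC16A14, an orphan relative of SLC16A6, was higher at 1.83 and 1.70, and SLC16A9, a carnitine transporter, at 0.86 and 1.71. Of the 9 tested relatives of SLC16A6, 3 were higher and 2 lower with selinexor, and 4 were higher and 2 lower with knockdown.

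**Figure D3:**
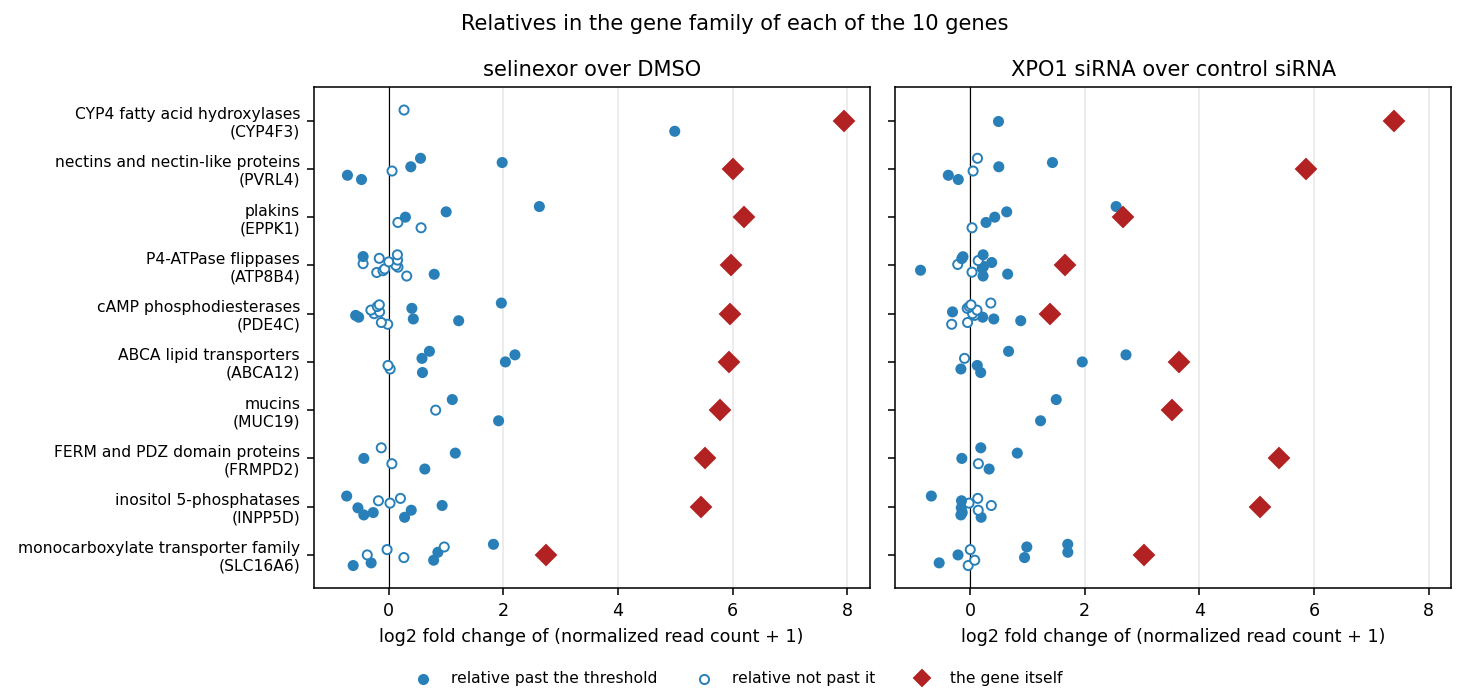
Log2 fold change of the normalized read count plus 1 for the tested relatives in each gene family (blue, filled where the adjusted p is under 0.05) and for the gene that named the family (red diamond), with selinexor over DMSO left and XPO1 siRNA over control siRNA right. CYP4F2 at 4.99 with selinexor is the highest of the relatives, and relatives lie on both sides of 0 in each panel.

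Genes next to the 10 were read in the same libraries. Of 23 genes that flank or overlap the 10 in the authors' coordinates, 20 were tested in each comparison. With selinexor 9 were higher, 2 lower and 9 not past the threshold, a share higher of 45%, against 22.9% of all genes. The 9 include CYP4F2, whose call is a description because it passed the filter on low values through its treated libraries alone. CYP4F2 is also counted among the relatives. With knockdown 5 were higher, 3 lower and 12 not past it, a share higher of 25%, against 25.9%. The 2 lower with selinexor became 4 without selinexor replicate 1, and 1 without DMSO replicate 2 or DMSO replicate 3.

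PDE4C has neighbours on the same strand that were higher with selinexor. KIAA1683 ends 1677 bases before PDE4C begins and RAB3A, which encodes a synaptic vesicle GTPase, begins 3885 bases after PDE4C ends. KIAA1683 had 191, 107 and 125 normalized reads in selinexor libraries, against 50.7, 22.1 and 35.2 in DMSO libraries. It had 69.9, 83.0 and 91.7 in XPO1 siRNA libraries, against 32.6, 27.6 and 25.8 in control siRNA libraries. Its log2 fold changes were 1.97 and 1.47 (limma, adjusted p = 0.00133 and 1.74e-05), the second of them about as large as that of PDE4C itself. RAB3A was higher with selinexor at 1.65 (adjusted p = 6.25e-05), and with XPO1 siRNA its value was 0.15 (adjusted p = 0.161, and 0.0395 without control siRNA replicate 1, limma). Whether transcripts run on from one of these genes into the next was not tested.

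SLC16A6 lies wholly within the span of ARSG, a sulfatase gene on the opposite strand. ARSG had 373, 344 and 348 normalized reads in selinexor libraries, against 197, 173 and 137 in DMSO libraries. It had 330, 386 and 376 in XPO1 siRNA libraries, against 202, 192 and 181 in control siRNA libraries. It rose in both, at log2 fold changes of 1.08 and 0.92 (limma, adjusted p = 0.000495 and 1.34e-06). The libraries were made with a strand-specific kit, but the use of strand in counting is not given in the sources used here, so reads of SLC16A6 and ARSG in their shared span cannot be told apart. ATP8B4 and ABCA12 also have a partner on the opposite strand. SLC27A2, which overlaps ATP8B4, had a log2 fold change of 0.25 with selinexor (adjusted p = 0.242) and was lower with XPO1 siRNA at -0.34 (adjusted p = 0.00346, limma). AC072062.1, which overlaps ABCA12, had log2 fold changes of -0.10 and -0.12, neither past the threshold (limma, adjusted p = 0.825 and 0.773).

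Other neighbours past a log2 fold change of 1 were seen with selinexor. NRBP2 beside EPPK1 was higher at 1.34 and LRRK2, the kinase gene 24108 bases before MUC19 on the same strand, was higher at 1.08. WIPI1, 129679 bases from SLC16A6, was higher at 1.09, and GABPB1, 94373 bases from ATP8B4, was lower at -1.07. With XPO1 siRNA the log2 fold changes were 0.53 for NRBP2, 0.22 for LRRK2, -0.12 for WIPI1 and -0.42 for GABPB1. Of these, NRBP2 and GABPB1 were past the threshold, and WIPI1 was so only without control siRNA replicate 1 (limma, adjusted p = 0.126, and 0.0400 without it).

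**Figure D4:**
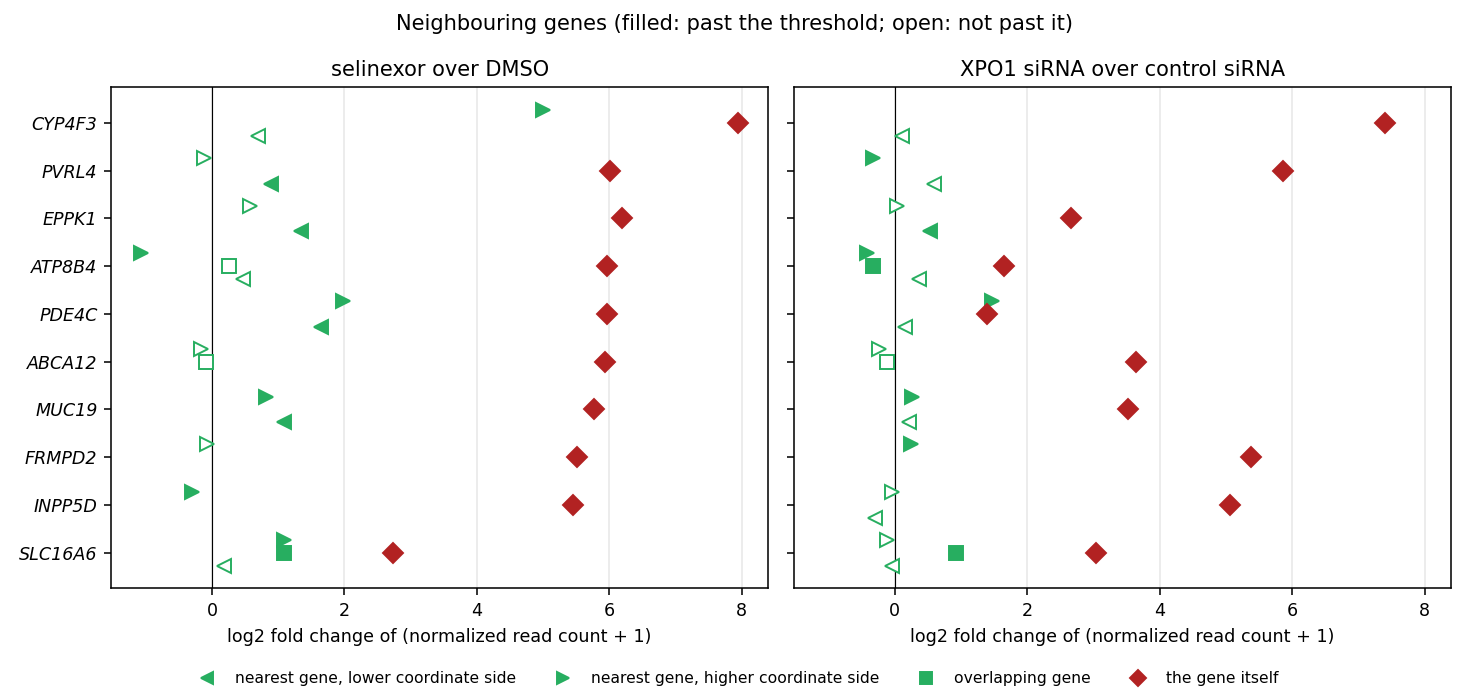
Log2 fold change of the normalized read count plus 1 for each gene (red diamond) and its tested neighbours (green; triangles point to the side, squares overlap, filled where the adjusted p is under 0.05), with selinexor over DMSO left and XPO1 siRNA over control siRNA right. CYP4F2, which lies 215196 bases from CYP4F3 and may hold some of its reads, stands near 5 with selinexor. KIAA1683, 1677 bases from PDE4C, is at 1.97 and 1.47.

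Several of the genes are usually found in other tissues, so markers of those tissues were read in the same libraries. Of 12 epithelial and keratinocyte markers 2 had a row here, KRT10 and CLDN4. Their summed level was 99.6 to 146 in selinexor libraries and 101 to 153 in DMSO libraries, and 212 to 218 in XPO1 siRNA libraries and 138 to 144 in control siRNA libraries. CLDN4, a tight junction gene, was higher in both at log2 fold changes of 1.63 and 1.18 (limma, adjusted p = 0.000808 and 0.000107). KRT10, a keratin of upper skin layers, had -0.57 with selinexor (adjusted p = 0.0718) and was higher with XPO1 siRNA at 0.35 (adjusted p = 0.0184, limma). Leaving out selinexor replicate 2 or DMSO replicate 1 brought KRT10 past the threshold with selinexor (adjusted p = 0.0325 and 0.0486), and leaving out XPO1 siRNA replicate 1 ended its call with knockdown (adjusted p = 0.0633, limma). Rows for EPCAM, CDH1, KRT5, KRT14 and the other epithelial markers were not analysed here. Of 12 leukocyte markers 3 had a row with selinexor and 4 with knockdown, none of those tested was past the threshold, and their summed level was 27.3 to 34.8 in selinexor libraries, 24.9 to 33.4 in DMSO libraries, 32.8 to 42.9 in XPO1 siRNA libraries and 28.7 to 35.8 in control siRNA libraries. Rows for PTPRC, CD3E and SPI1 were not analysed here. The part of these markers in the rises was not tested, and in bulk RNA fewer cells of a type and less RNA per cell cannot be told apart.

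The genes whose 12 libraries most resembled the middle pattern of the 10 were then listed. For each gene the log2 values were centred on the mean of the controls of its table, and its distance from the median of the 10 was the root mean square over the 12 libraries. The nearest outside the 10 were CDKN1A (0.54), CYP4F2 (0.58), ACTA2 (0.67), WDFY4 (0.68) and MYBPHL (0.74), while the 10 themselves ranged from 0.15 for MUC19 to 2.21 for CYP4F3. CDKN1A, the gene of the cell-cycle inhibitor p21 and a long-known p53 target, was far from silent in the controls. CDKN1A had 26245, 29602 and 26274 normalized reads in selinexor libraries, against 611, 672 and 617 in DMSO libraries. It had 16062, 15137 and 15456 in XPO1 siRNA libraries, against 721, 671 and 673 in control siRNA libraries. MYBPHL, a muscle gene, had 61.2, 61.3 and 56.7 in selinexor libraries, against 0.860, 0 and 1.81 in DMSO libraries, and 63.7, 64.8 and 51.2 in XPO1 siRNA libraries, against 3.16, 1.06 and 1.61 in control siRNA libraries. Likeness of pattern is a description over these 12 libraries. Of a list of 30 p53 targets, 28 were tested and all 28 were higher in both comparisons. GDF15 is among the 28, and its control means were 2.63 with DMSO and 1.24 with control siRNA. It passed the filter on low values through its treated libraries alone, so its calls are descriptions. Over all genes tested the share higher was 22.9% with selinexor and 25.9% with knockdown. The median log2 fold changes of the 28 were 2.26 with selinexor and 1.40 with XPO1 siRNA. That list was chosen with these data known, so it is no independent evidence.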

How the data were processed

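The labels' protocols describe a strand-specific total RNA kit, and 12 IMR5 libraries, 3 in each of 4 groups, were assigned by sample title. The submitters' processing notes name STAR 2.7.3a, Partek, DESeq2 and hg19, with no annotation, counting option or strand setting given in the sources used here. Each table holds a signal that the authors deposited, having divided gene counts by 1 size factor per library; 1 table covers selinexor (20029 genes) and the other the knockdown (19610 genes). A further 3 columns in the knockdown table matched no sample and were not used, so the knockdown rests on 1 siRNA. Gene symbols that had become dates (25) were restored from their coordinates. The estimated reads come from the step that a single read makes in each library's low values. In the window of 0.3 to 60, 61.8% to 66.6% of entries were multiples of that step to within 0.02, too few to recover whole reads, and no count model was used. Ratios of rounded reads carry exact 95% intervals for counting error only.

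Within each table, genes averaging 10 or more over 6 libraries entered a limma 3.58.1 fit (R 4.3.3, eBayes with a trend) of log2(value + 1) on group alone. P-values are two-sided, adjusted by Benjamini-Hochberg over every gene in the fit, and the threshold is 0.05. The log2(value + 1) scale understates the change of low genes. The fit was also run on simulated data in which only genes with a control mean of 10 or more were changed. That run therefore does not cover near-silent controls. Replicate numbers were not treated as pairs. Deviations of same-numbered libraries correlated at 0.0088, 0.12 and -0.042 in the selinexor table and at -0.031, -0.020 and -0.10 in the knockdown table. With 3 libraries per group these values cannot show whether the samples were paired. No libraries were duplicates: pairs within a group gave 2.85 to 55.3 units of chi-square for each gene.

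The 10 genes, the gene families, the marker lists and the p53 target list were chosen with earlier results of these data known. Rises past the threshold were ranked among genes that averaged 100 or more when treated and had no overlap between groups. Genes with only a clone or locus number as a name were left out of that ranking. A comparison is said to have named a gene that was among the 8 steepest rises so ranked. Other genes named are XPO1, at most 3 relatives per family that passed the test, neighbours that passed it with a log2 fold change of 1 or more either way or that overlap one of the 10, at most 3 markers per list, and the 5 genes most alike in pattern. PLEC, GDF15 and SLC16A13 were named after their values were seen. Neighbours are the nearest genes with a row here, by the authors' hg19 coordinates. Transcript lengths are GENCODE values matched by symbol for 82.2% and 83.2% of the genes of the tables. Promoter windows are RefSeq sequences of GRCh38.p14, matched by current symbol and not placed on hg19. The alternatives were pseudocounts of 0.5 and 5, filters of none and 50, rescaling by library totals or by trimmed log ratios, omission of each replicate, a replicate block, and limma without a trend. Figures were drawn with matplotlib 3.10.9 under Python 3.11.15.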

Additional observations from a re-analysis of the deposited data

How the results depend on the processing

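Counts stayed within 1.5 times in 406 of 420 refits. The largest adjusted p over the alternatives was 0.00571 for EPPK1, 0.00548 for PDE4C and 0.00394 for ATP8B4 with XPO1 siRNA, and 0.000486 for SLC16A6 with selinexor (limma). With a mean of 50 or more, 1 of the 4 genes not named by the knockdown (EPPK1, ATP8B4, PDE4C and ABCA12) was tested there, since the other 3 fell below the filter, and 0 epithelial markers were higher with selinexor. With equal totals CYP4V2 with selinexor and RAB3A with knockdown came past the threshold (limma, adjusted p = 0.0166 and 0.0315), as did CYP4V2 with a mean of 50 or more (0.0460). With equal totals the neighbours lower with selinexor were 1 and the relatives lower with knockdown 4. Without a trend those relatives were 8 and 1 leukocyte marker was lower with knockdown. With no filter 1 leukocyte marker was higher with knockdown. The cause was not tested for these counts. With equal totals 52.7% of calls were higher with selinexor and 62.4% with knockdown, against 46.5% and 47.5% as deposited.

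Leaving out single libraries gave 1 to 4 neighbours lower with selinexor, 0 to 1 epithelial markers lower with selinexor and 1 to 2 higher with knockdown. Log2 fold changes that turned sign then were those of XPO1 with selinexor (-0.019 to 0.25), AC072062.1 with selinexor (-0.26 to 0.16) and with knockdown (-0.30 to 0.062), and PLEC with knockdown (-0.032 to 0.086). None of these was past the threshold where its sign had turned.

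With the replicate number as a block, 3991 genes were higher and 4680 lower with selinexor and 4439 higher and 4882 lower with knockdown, and 1 epithelial marker was lower with selinexor. The block brought PLEC (adjusted p = 0.0265) and KRT10 (adjusted p = 0.0204, limma) with selinexor past the threshold and changed no call of the 10 genes. Values of a few reads in the control libraries limit how exactly the largest ratios are known.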
